A study of Drosophila melanogaster
Mus musculus with 6 samples.

Results

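The 7500 regions described here were the 10 kb intervals of mouse chromosomes 1 to 19 that carried strong H3K27me3 in wild-type cells and still carried it in cells expressing a lysine 36 mutant histone. A bin was a member if its wild-type H3K27me3 was at least 60 scaled reads and its H3K27me3 in the mutant line was at least 0.67 of the wild-type value. Members made up 3.23% of the 231965 autosomal 10 kb bins with signal, and together covered 75 Mb. The cells were C3H10T1/2, mesenchymal progenitors from C3H mouse embryos, at passage 10 to 15. One line stably carried FLAG-HA-tagged H3.1 of wild-type sequence (WT). The other carried tagged H3.1 in which lysine 36 was methionine (K36M). The labels name no change to the cells' own histone genes and do not say whether a line was 1 clone or a pool. Chromatin cut with micrococcal nuclease was immunoprecipitated for H3K36me2 or H3K27me3 after soluble Drosophila S2 chromatin had been added as an outside reference (ChIP-Rx). A scaled read is a sequencing read multiplied by the factor of its library in the deposited table. With 1 library for each mark and line, the lines could not be tested against each other, and intervals cover counting error only.

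H3K27me3 is written by Polycomb repressive complex 2 and marks genes that are kept silent, among them many developmental regulators. The complex spreads the mark from sites where it is recruited, and methylation of H3 lysine 36 on the same histone tail hinders it. The NSD enzymes write H3K36me2 over broad stretches of active and intergenic chromatin, where the Polycomb mark is usually sparse. The K36M histone inhibits enzymes that methylate lysine 36 and thereby lowers the mark on other nucleosomes as well. The question put to these bins was what became of chromatin that was already rich in the Polycomb mark when H3K36me2 was lost around it.

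The rule rested on both H3K27me3 libraries, so H3K27me3 values of members are a description and nothing is tested with them. Of 8152 autosomal bins with at least 60 scaled reads in WT, 7500 met the ratio condition (92.0%) and 652 did not. Over all autosomal bins the ratio condition was met by 99.1%, and the share of strong bins is given as a description. Median H3K27me3 of the members was 75.8 scaled reads in WT (interquartile range 66.8 to 90.3) and 77.0 in K36M (65.5 to 91.5). Over all autosomal bins the medians were 5.67 and 28.6. The members thus stayed at nearly the same scaled level in a library where the typical bin was higher. The median over members of the K36M to WT ratio was 0.959, with 5% of members under 0.715 and 5% above 1.43. The ratio lay between 0.8 and 1.25 in 5168 members, between 0.67 and 0.8 in 1331, and at or above 1.25 in 1001. By the 95% counting interval of each bin, 3562 members could not be told from a ratio of 1, 2314 lay below it and 1624 lay above it. A median member held 695 reads in WT and 261 in K36M, which sets counting half-widths of 7.43% and 12.1%.

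**Figure D1:**
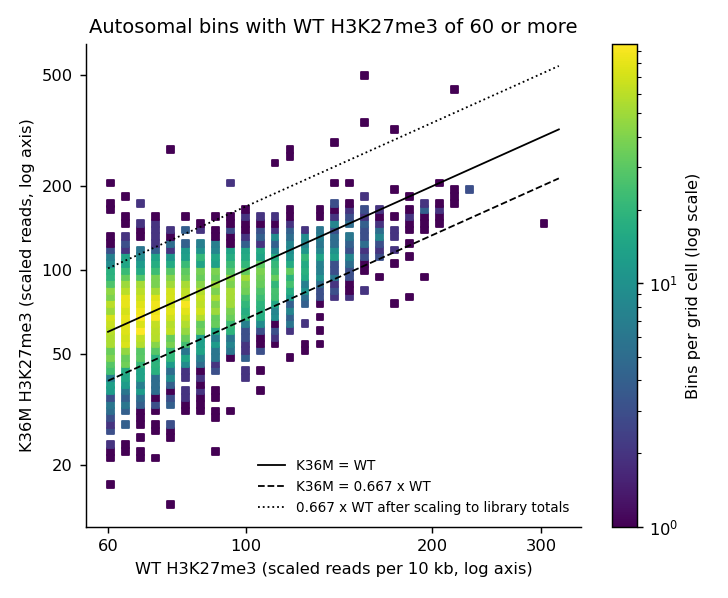
H3K27me3 in WT (horizontal, log axis) and in K36M (vertical, log axis), in scaled reads per 10 kb, for strong autosomal bins, leaving out those with WT H3K36me2 of 1000 or more; colour gives the number of bins in each grid cell. Held bins lie on or above the dashed line at 0.67 of WT, most of them near the solid line of equality, and few reach the dotted line, which is where the same condition falls when each library is scaled to its own total.

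Bins on either side of the cuts were much alike. The 626 members at 60 to under 62 scaled reads in WT had a median ratio of 1.07, and the 702 bins at 58 to under 60 that met the ratio condition had 1.09. At the other cut, 231 members with a ratio from 0.67 to under 0.70 had median H3K27me3 of 87.0 scaled reads in WT and 59.0 in K36M. The 195 bins with a ratio from 0.63 to under 0.67 had 84.6 and 55.2. The counting interval reached below 0.67 in 1073 members, and reached 0.67 or more in 433 of the 652 strong bins that did not hold. Membership near that line is therefore not fixed at this depth.

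Whether the bins held depended on the library factors. The K36M factor per read was 0.295 and the WT factor 0.109. When each H3K27me3 library was scaled to its own total, the median member ratio was 0.379, and 101 of the 8152 strong bins (1.24%) reached 0.67 of WT. On that scale each H3K27me3 ratio of K36M over WT given here is multiplied by 0.395 and each H3K36me2 ratio by 9.35, and 17 of the 7500 members have an H3K27me3 ratio above 1. The share of the library in these bins does not depend on the factors. Leaving out 34 bins with WT H3K36me2 of 1000 or more, members held 20.0% of autosomal H3K27me3 in WT and 7.73% in K36M, in 3.23% of the bins. As a rank, the median member stood at the 98.2nd percentile of autosomal bins in WT, by the rule, and at the 95.5th in K36M.

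The top of the H3K27me3 ranking was shared with other bins in K36M. Of the 7500 autosomal bins highest in K36M, all at or above 82.0 scaled reads, 3017 were members and 29 were strong bins that did not hold. The other 4454 had been under 60 in WT. Each of these newcomers had to rise, by the way they were picked. Their median went from 22.1 to 89.7 scaled reads of H3K27me3, and 2084 of them had been under 20. Their median H3K36me2 was 202 scaled reads in WT and 7.49 in K36M, so they had started with more of it than the members, whose WT median was 63.6.

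Within the strong bins, the ratio was lower where the WT level was higher, an order that selection on the WT value also favours. Strong bins of 60 to under 70 scaled reads in WT had a median ratio of 1.02, and 93.5% of them held. Bins of 70 to under 80 had a median ratio of 0.964, and those of 80 to under 100 had 0.899. From 100 to under 150 the median ratio was 0.844 and 87.7% held. The 97 bins of 150 to under 200 had medians of 162 and 135, with a ratio of 0.818. The 14 bins at 200 or more went from 214 to 181, and 13 of them held. The strongest Polycomb bins were thus lower in K36M with the deposited factors as with library totals, and still far above the K36M median of 28.6. The 3 strongest members with WT H3K36me2 under 1000 were 1 bin on chromosome 13 and 2 on chromosome 15. Chromosome 13 at 41260001 to 41270000 (mm9) went from 228 to 192 scaled reads of H3K27me3, a ratio of 0.842 (0.770 to 0.920). Both bins on chromosome 15, at 102770001 to 102780000 and at 102740001 to 102750000, had about 225 scaled reads in WT and 197 in K36M, and they lie inside the Hoxc window described further on.

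H3K36me2 was not used to choose the bins. In WT the members had a median H3K36me2 of 63.6 scaled reads (interquartile range 47.7 to 92.9), against 103 over all autosomal bins, which places the median member at the 39.9th percentile. Only 1437 members (19.2%) lay above the autosomal median and 120 (1.60%) at or above the autosomal 75th percentile of 227. Strong Polycomb bins were therefore poor in H3K36me2 next to autosomal bins at large. The 5th percentile of members was 33.7, between the autosomal 5th percentile of 20.4 and 25th percentile of 35.6. Bins with few reads in every library could not be members, which favours a higher 5th percentile in members. Whether the members' H3K36me2 in WT lay above background was not tested, as the inputs were not analysed. In K36M their median was 6.40 scaled reads (5.54 to 7.25), close to the autosomal median of 6.24. The median ratio was 0.0988, and 0.0878 (0.0875 to 0.0881) from summed reads of the 7480 members with WT H3K36me2 under 1000, which is 11.4-fold lower. H3K36me2 was lower by at least 2-fold in 7496 of the 7500 members (99.9%), against 93.3% of all autosomal bins. It was lower by at least 10-fold in 3821 members (50.9%), against a background of 47.7%, which is nearly the same share. Bins that held the Polycomb mark had thus lost H3K36me2 by 10-fold about as often as autosomal bins at large. In K36M the median member stood at the 51.8th percentile of H3K36me2. From the lowest to the highest quartile of members by WT H3K36me2, medians ran from 40.1 to 121 in WT. In K36M they ran only from 5.54 to 7.18, so the size of the fold largely followed the WT level. Scaled to library totals the median H3K36me2 ratio of members was 0.924, so the size of this fall also rested on the factors.

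**Figure D2:**
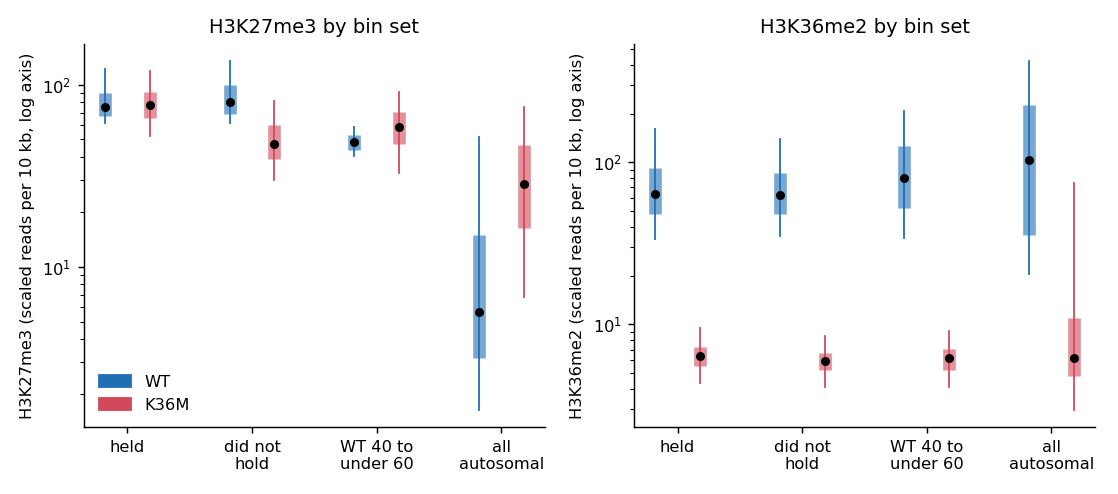
H3K27me3 (left) and H3K36me2 (right) in scaled reads per 10 kb on log axes, in WT and K36M, for held bins, strong bins that did not hold, bins of 40 to under 60 scaled reads of H3K27me3 in WT, and all autosomal bins; points are medians, thick bars the interquartile range and thin bars the 5th to 95th percentile. Held bins have a median H3K27me3 of 75.8 in WT and 77.0 in K36M, while their H3K36me2 goes from 63.6 to 6.40.

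The 4 members in which H3K36me2 was not lower by 2-fold all lay on chromosome 11 between 83020001 and 83070000. In the bin 83050001 to 83060000, H3K36me2 was 50.9 scaled reads in WT and 45.7 in K36M, a ratio of 0.898. H3K27me3 in the same bin was 86.4 and 80.5. In the bin 83040001 to 83050000, H3K36me2 was 61.1 and 45.1 and H3K27me3 was 78.8 and 72.0. Both marks were thus present in K36M over the same intervals; whether they were on the same nucleosomes cannot be told from separate immunoprecipitations. These bins were named after their values were seen.

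The strong bins that did not hold had much the same H3K36me2. Their WT median was 63.3 scaled reads, against 63.6 in members, a ratio of members to these bins of 1.01, and 0.990 after they were weighted to the members' WT H3K27me3 levels. H3K36me2 was lower by at least 2-fold in 646 of the 652 (99.1%) and by at least 10-fold in 360 (55.2%). In K36M their median H3K36me2 was 5.93 scaled reads, against 6.40 in members. The order was the same in each class of WT H3K27me3: 5.69 against 6.28 at 60 to under 70, 5.77 against 6.32 at 70 to under 80, 6.01 against 6.40 at 80 to under 100, and 6.44 against 6.47 at 100 or more. No replicate was there to test these differences. The medians of WT H3K36me2 thus nearly coincided between strong bins that held and those that did not.

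Among members, the quartile richest in WT H3K36me2 had the highest H3K27me3 ratio. Leaving out the bins at 1000 or more, the median ratio was 0.938, 0.923, 0.933 and 1.05 from the lowest to the highest quartile of WT H3K36me2. The highest quartile also had the lowest WT H3K27me3, 71.2 scaled reads against 76.2 to 78.2. Within classes of WT H3K27me3 the same quartile remained highest, at 1.11 for 60 to under 70, 1.06 for 70 to under 80, 0.978 for 80 to under 100 and 0.980 for 100 or more. The other quartiles lay at 1.01 to 1.02, 0.952 to 0.983, 0.886 to 0.910 and 0.837 to 0.860 in these classes. Across the 7480 members, Spearman's rho was 0.17 between WT H3K36me2 and the H3K27me3 ratio and 0.54 between WT and K36M levels of H3K27me3. These are descriptions across bins, which share their libraries and are not independent.

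Distance to H3K36me2-rich chromatin, meaning the nearest bin at or above 227 scaled reads in WT, matched the order of the quartiles only in part. The median distance was 80 kb for members (interquartile range 40 to 140 kb) and 60 kb for strong bins that did not hold (30 to 90 kb). Of the members, 12.7% lay 200 kb or more away, against 2.61% of the strong bins that did not hold and 35.3% of all autosomal bins. The 572 members that were rich bins themselves or lay within 10 kb of one had a median H3K27me3 ratio of 1.10. Members at 20 to 50 kb had 0.936, at 60 to 100 kb 0.930, at 110 to 200 kb 0.956, and the 839 beyond 200 kb had 1.04. The ratio was thus highest in or right beside H3K36me2-rich bins and next highest far from them. Median WT H3K27me3 was lowest in the same classes, 71.2 and 72.8 scaled reads, against 76.0 to 77.7 at the distances between. A lower WT level went with a higher ratio, and distance was not compared at equal WT level.

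Members were scattered as well as clustered. They formed 3738 runs of adjacent bins, of which 2203 were single bins, holding 29.4% of the members. The 288 runs of at least 5 bins held 2125 members, and the 52 runs of at least 10 bins held 655. Of 2417 windows of 1 Mb, 1128 held a member, and 186 windows held 50% of all members. The densest window, chromosome 2 from 180000001 to 181000000, had 48 members among 96 bins. Next came chromosome 10 from 22000001 to 23000000 with 44 of 100. Of the 7476 ends of runs, 3978 bordered a bin of 40 to under 60 scaled reads in WT and 795 a bin under 20. A strong bin that did not hold bordered 347 ends (4.64%), while such bins made up 0.281% of all autosomal bins. More than 50% of run ends thus met chromatin just under the cut rather than a sharp border.

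By chromosome, members made up from 1.51% of bins on chromosome 3 to 5.54% on chromosome 19. Chromosome 2 had the most, 805. Leaving out bins with WT H3K36me2 of 1000 or more, the median H3K27me3 ratio of members ranged from 0.844 on chromosome 6 to 1.04 on chromosome 13. The share of strong bins that held ranged from 86.6% on chromosome 6 to 96.4% on chromosome 14, against 98.6% to 99.8% of all bins meeting the ratio condition. Median WT H3K36me2 of members ranged from 46.4 scaled reads on chromosome 5 to 80.8 on chromosome 17.

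Outside the runs, median H3K27me3 was higher in K36M at every distance with the deposited factors, and it fell less with distance. By the rule, most runs end where the WT level passes under 60 scaled reads. A drop in WT at the edge is thus built in, with no such cut on the K36M level. In the first 10 kb beyond a run, median H3K27me3 was 43.4 scaled reads in WT and 53.4 in K36M. At 90 to 100 kb it was 19.7 in WT and 44.5 in K36M. At 290 to 300 kb it was 8.07 in WT and 37.5 in K36M. With K36M scaled to the WT library total, its medians were 21.1 in the first 10 kb and 14.8 at 290 to 300 kb, and they passed the WT medians only from 110 kb outwards. H3K36me2 climbed over the same distance in WT, from 90.6 in the first 10 kb to 149 at 290 to 300 kb. In K36M it went from 6.40 to 8.35 over the same span and stayed between 6.40 and 8.50 throughout. H3K36me2 thus climbed away from the runs in both lines. How many scaled reads it climbed by rests on the factors, 0.636 per read in WT and 0.078 in K36M. As a proportion of the first 10 kb, which the factors do not change, the climb of these medians was also smaller in K36M. Means over surrounding bins, described below, gave the opposite order. The median run had 0.534 of the mean H3K36me2 of its surroundings in WT and 0.428 in K36M.

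**Figure D3:**
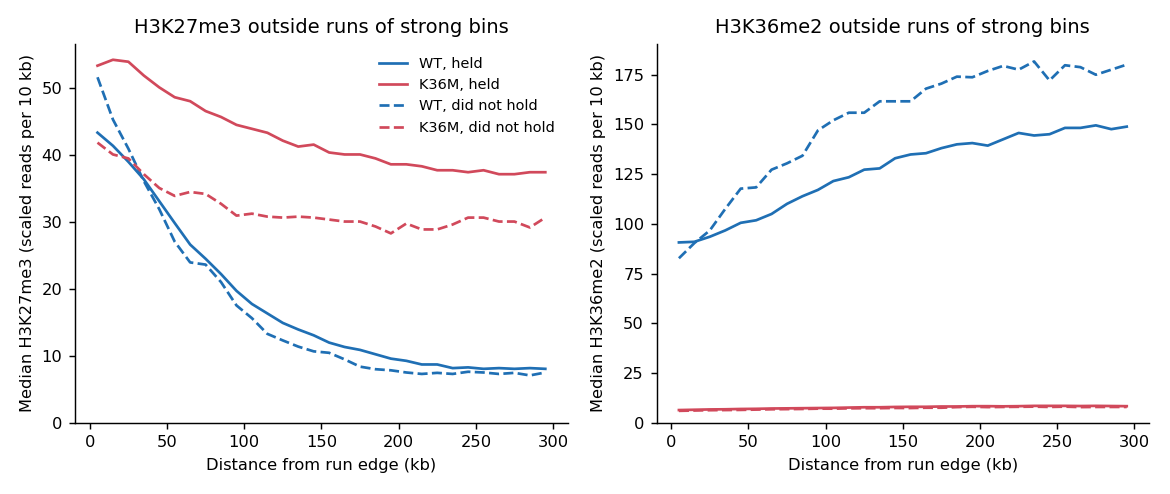
Median H3K27me3 (left) and H3K36me2 (right) in scaled reads per 10 kb against distance in kb from the edge of runs of held bins (solid) and of runs of strong bins that did not hold (dashed), both sides together, in WT and K36M; runs of held bins with mean WT H3K36me2 of 1000 or more are left out. Around held runs, H3K27me3 falls from 43.4 to 8.07 in WT but only from 53.4 to 37.5 in K36M. Most held runs end, by the rule, where WT H3K27me3 passes under 60.

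The step from a run to its surroundings is a ratio within 1 library and does not depend on the factors. Set against bins 50 to 100 kb away that were not members, the median run stood 3.58-fold above its flanks in WT (interquartile range 2.39 to 5.66) and 1.86-fold in K36M (1.46 to 2.52). These values cover 3724 runs with flanks and with mean WT H3K36me2 under 1000. The step was smaller in K36M in 3595 of them (96.5%). Median flank H3K27me3 was 21.1 scaled reads in WT and 40.4 in K36M. The median flank ratio was 1.88, which library totals turn to under 1. The runs were picked for a high WT value, which favours a high WT step. When the same number of bins was picked by K36M H3K27me3 instead, the median step was 2.15-fold in WT and 1.97-fold in K36M. That set is largely of other bins, since 4454 of its 7500 were under 60 in WT. With other members kept among the flanks, the member runs had steps of 2.51-fold and 1.62-fold.

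Against flanks without other members, longer runs stood out more. Single bins had a median step of 3.39-fold in WT and 1.83-fold in K36M, and runs of 10 or more bins had 4.90-fold and 2.45-fold. With other members kept in the flanks, the order with length was lost in K36M, at 1.62-fold for single bins and 1.59-fold for runs of 10 or more. In WT these were 2.49-fold and 2.72-fold, with runs of 5 to 9 bins lowest at 2.29-fold. The median over runs of mean WT H3K27me3 was 69.5 scaled reads for single bins and 92.3 for runs of 10 or more. WT H3K36me2 of the median run was 0.534 of its flanks, 0.565 for single bins and 0.336 for runs of 10 or more, and it was under the flank value in 3392 of 3724 runs (91.1%). In K36M the median run had 0.428 of its flanks, at 6.35 against 14.9 scaled reads, 0.456 for single bins and 0.314 for runs of 10 or more. These flank values are means over bins, while the median bin between 50 and 100 kb from a run had 7.02 to 7.41 scaled reads in K36M. Whether the ratio differed between the lines with median flanks was not tested. In runs of at least 5 bins, the bins inside had a median H3K27me3 of 87.5 scaled reads in WT and 83.8 in K36M. The bins at both ends had 77.9 and 77.0, and more WT H3K36me2, 63.6 against 54.7.

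Runs that did not hold had poorer surroundings in K36M. With all strong bins left out of the flanks, held runs had a median flank H3K27me3 of 20.5 scaled reads in WT and 40.1 in K36M. The 486 runs of strong bins that did not hold had 20.0 and 29.9. The flanks of held and other runs were thus alike in WT and apart in K36M. Neighbouring bins tend to share their level, so this is not independent of the rule. Median flank H3K36me2 was 144 and 15.0 scaled reads around held runs and 169 and 9.05 around the others. The 2 kinds of bin were often neighbours: 266 of the 652 bins that did not hold (40.8%) touched a member. Members made up 3.23% of all autosomal bins.

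The 6 longest runs are given one by one. A run on chromosome 1 at 169550001 to 169750000 covered 200 kb, with H3K27me3 per bin at 60.1 to 119 scaled reads in WT and 58.7 to 113 in K36M. Its mean ratio was 0.942 (0.914 to 0.972), and its H3K36me2 was 7.99-fold lower (7.44 to 8.59). Its flanks had a mean H3K27me3 of 85.3 in WT, but the sides were unlike. The flank bins before the run had 46.4 to 54.8 scaled reads. Those after it had 94.3 to 144 and all lay in the stretch named next. A stretch of 6 strong bins from 169780001 to 169840000, just beyond this run, did not hold and fell from 112 to 67.7. The run on chromosome 9 at 45230001 to 45430000, also 200 kb, went from a mean of 73.0 to 82.6, a ratio of 1.13 (1.10 to 1.17). The range over its bins was narrow in WT, 61.4 to 82.6 scaled reads, and 69.0 to 103 in K36M.

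The third longest, on chromosome 1 at 183490001 to 183680000, went from a mean of 92.7 to 86.0, a ratio of 0.928 (0.900 to 0.957). It stood 3.99-fold above its flanks in WT and 2.38-fold in K36M. On chromosome 9 at 71050001 to 71230000 the mean went from 94.0 to 85.5, a ratio of 0.909 (0.881 to 0.938). On chromosome 9 at 43210001 to 43390000 it went from 82.0 to 81.2, a ratio of 0.990 (0.958 to 1.02) that counting error alone could not tell from 1. On chromosome 2 at 74480001 to 74660000 it went from 106 to 116, a ratio of 1.10 (1.07 to 1.13). H3K36me2 in these 6 runs was 39.0 to 65.2 scaled reads in WT and 5.67 to 6.72 in K36M. All 6 were thus H3K36me2-poor in WT and lower still in K36M, while their H3K27me3 ratios lay between 0.909 and 1.13.

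**Figure D4:**
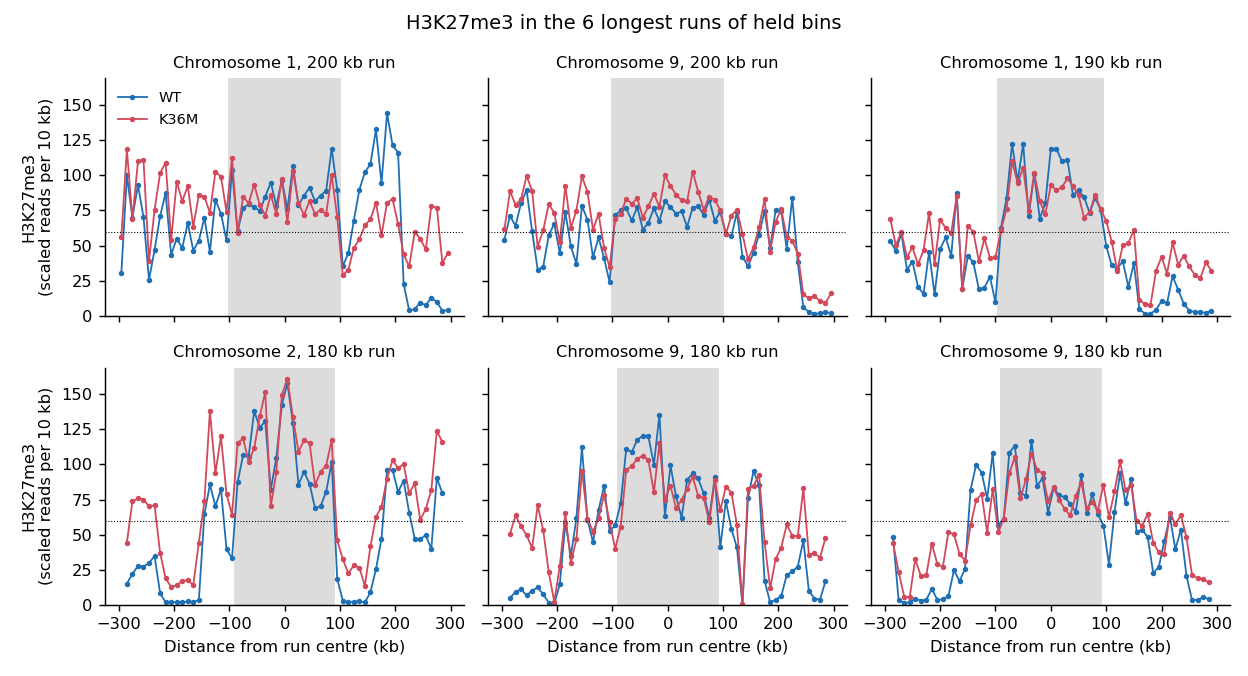
H3K27me3 in scaled reads per 10 kb against distance in kb from the run centre for the 6 longest runs of held bins, in WT and K36M, with the run shaded and the level of 60 dotted. Within the shading K36M lies at 55.8 to 161 scaled reads, and in several flanks the K36M line lies above a WT line near 0.

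The run on chromosome 2 lies in the Hoxd cluster. The Hox genes set position along the body axis and are textbook Polycomb targets; the windows used for them are rounded positions on mm9 from general knowledge, since no mouse annotation was used here. Of 100 bins in the 4 windows, 67 were members, 7 were strong and did not hold, and 26 were under 60 in WT. In the Hoxc window (chromosome 15 at 102700001 to 102900000), 19 of 20 bins were members, with H3K27me3 at 62.3 to 225 scaled reads in WT (median 186) and at 106 to 205 in K36M (median 164). In the Hoxd window (chromosome 2 at 74400001 to 74700000), 22 of 30 were members, with medians of 91.1 and 115. In the Hoxa window (chromosome 6 at 52100001 to 52300000), 8 of 20 were members, with medians of 92.8 and 77.1. The median ratio was thus 1.16 in Hoxd, 0.873 in Hoxc and 0.863 in Hoxa, and the clusters differed in direction with the deposited factors, while library totals put all of them under 1.

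The Hoxb window (chromosome 11 at 96000001 to 96300000) was split. Its 18 members had median H3K27me3 of 145 scaled reads in WT and 110 in K36M. Between them, 6 adjacent bins from 96110001 to 96170000 did not hold and fell from 134 to 194 scaled reads in WT to 75.2 to 94.1 in K36M, a median ratio of 0.524. In these 6 bins H3K36me2 was 32.4 to 54.1 scaled reads in WT and 10.2 to 29.5 in K36M, a median ratio of 0.484. In the members of the same window the median H3K36me2 ratio was 0.173. The 4 members right after the stretch, from 96170001 to 96210000, held H3K27me3 with H3K36me2 ratios of 0.287 to 0.337, and the bin 96140001 to 96150000 did not hold it with a ratio of 0.315. The other bins of the stretch that did not hold had H3K36me2 ratios of 0.362 to 0.748, above those of these 4 members. Over all strong bins that did not hold, the median H3K36me2 ratio was 0.0955, against 0.0988 in members.

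**Figure D5:**
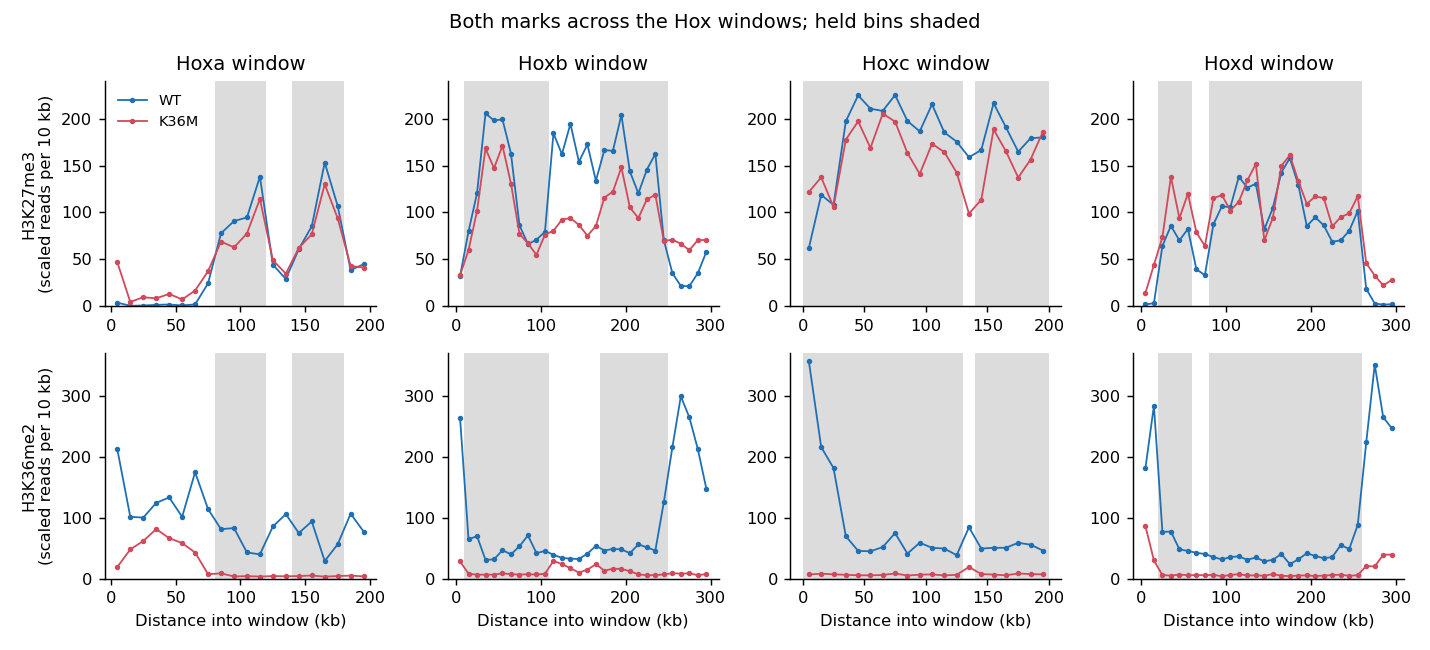
H3K27me3 (top) and H3K36me2 (bottom) in scaled reads per 10 kb against distance in kb into each Hox window, in WT and K36M, with held bins shaded. The unshaded stretch inside Hoxb, where K36M H3K27me3 lies at 75.2 to 94.1 under a WT level of 134 to 194, has K36M H3K36me2 of 10.2 to 29.5, and the 4 shaded bins right after it reach 16.5.

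A few members went against the label of Polycomb bins. In 20 members, WT H3K36me2 was 1000 scaled reads or more, and their WT H3K27me3 ranged from 65.7 to 22936. In these 20 the median was 3868 scaled reads of H3K36me2 and 441 of H3K27me3 in WT, and 292 and 423 in K36M. They held 5.11% of the members' H3K27me3 in WT and 14.5% in K36M, and 15 of the 20 lay in the first 4 Mb of their chromosome. A single bin on chromosome 2 at 98500001 to 98510000 had 949818 scaled reads of H3K36me2 and 22936 of H3K27me3 in WT. In K36M it had 53087.6 and 77332.5, so it was the highest autosomal bin for both marks in both lines. The bins on chromosome 6 at 103590001 to 103600000 and on chromosome 9 at 35110001 to 35120000 came next, with 2142 and 1489 scaled reads of H3K27me3 in WT. The inputs were not analysed, so whether the signal in these 20 bins reflects either mark was not tested. Their values are therefore not taken as levels of either mark. With these bins the ratio of summed H3K27me3 was 1.10, and without them 0.986 (0.985 to 0.988).

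Of the 3 largest ratios, the highest and the third lay in bins with WT H3K36me2 of 1000 or more. Values of such bins are not taken as levels of either mark. The highest was 3.95 (3.74 to 4.19), on chromosome 12 at 3110001 to 3120000, a bin with 7023 scaled reads of H3K36me2 in WT. The second was 3.62 (3.28 to 4.00), on chromosome 8 at 19930001 to 19940000, where H3K27me3 went from 74.6 to 270 and H3K36me2 from 221 to 37.4. The third, on chromosome 9 at 3020001 to 3030000, was 3.52, in a bin with 28811 scaled reads of H3K36me2 in WT. Among members with WT H3K36me2 under 1000, 29 had a ratio of at least 2. Their WT H3K36me2 ranged from 30.5 to 578 scaled reads, and 6 of them were under the members' median of 63.6. One of these 6, on chromosome 1 at 15930001 to 15940000, had a ratio of 2.31 and 62.3 scaled reads of H3K36me2. Of the 29, 7 lay on chromosome 8 between 19000001 and 21000000. The 8 members of that stretch had a median of 251 scaled reads of H3K36me2 in WT and 44.3 in K36M, far above the members' medians. The highest WT H3K36me2 under 1000 was 631 scaled reads, on chromosome 13 at 23490001 to 23500000, where H3K36me2 fell to 29.9 and H3K27me3 went from 109 to 130.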

How the data were processed

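H3K36me2 and H3K27me3 were mapped in WT and K36M C3H10T1/2 cells, 1 library each. The 2 inputs were not analysed here. The submitters' processing notes name Bowtie 1.0.0, mm9 and dm6. The sources used here do not give how reads were counted, filtered and scaled. The deposited values are a signal per interval, reads times 1 factor per library, made by the authors. All values (100%, within 0.01 of a read plus rounding) were whole multiples of 1 step, which for H3K36me2 was 0.636 in WT and 0.078 in K36M, and for H3K27me3 0.109 and 0.295. Read totals were 59618463 and 51982053 for H3K36me2, and 31847430 and 29817968 for H3K27me3. The factors are taken to carry the spike-in scaling, which could not be checked here, and an error in one multiplies every bin of its library.

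Of 253926 intervals, 249267 were 10 kb wide. Autosomal ones numbered 232039, of which 74 without signal were left out. Intervals of other widths were not used and break runs. Starts are given 1-based. The ratio condition, printed as 0.67, was 0.667. Ratios carry 95% exact binomial intervals from recovered reads. No count test or p-value was possible with 1 library per group. Named regions were the 6 longest runs and the 3 members highest in WT H3K27me3, in ratio and in WT H3K36me2, plus the Hox windows; the same ranks under a WT H3K36me2 of 1000, and all other regions named, were chosen after seeing values. The members and lists were chosen with earlier results of these data known. No gene names were assigned, as no mouse annotation was used here. The scripts were tested on simulated data. Tools were numpy 2.4.6, scipy 1.17.1, pandas 2.3.3 and matplotlib 3.10.9 under Python 3.11.15.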

Additional observations from a re-analysis of the deposited data

How the results depend on the processing

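Of 40 alternative values for 7 results, 7 stayed within 1.5-fold of a count or within counting error, 30 moved further and 3 crossed 1; the 10 that leave out bins with WT H3K36me2 of 1000 or more, keep members in flanks or choose bins by K36M were added after seeing the data. The members numbered 11627 with a WT cut of 50, 3046 with 80 and 101 with library totals. The H3K27me3 ratio of 0.959 became 1.10 from summed values (reversed, and 0.986 without the bins of 1000 or more), 0.379 with library totals and 0.891 after background subtraction (each library's 5th percentile). WT H3K36me2 relative to strong bins that did not hold was 1.01 by medians, 3.42 by means, 1.06 by means without the bins of 1000 or more, 0.990 after weighting by WT H3K27me3 and 0.794 against bins of 40 to under 60. The H3K36me2 ratio of 0.0988 became 0.0655 from summed values, 0.0878 from summed values without the bins of 1000 or more, 0.924 with library totals and 0.0756 after background subtraction. For flanks at 100 to 200 kb, flanks at 20 to 50 kb, background subtraction, runs of 2 or more, members kept in flanks and bins chosen by K36M, in that order, the H3K27me3 step was 4.61, 2.71, 3.81, 3.87, 2.51 and 2.15 in WT. In K36M it was 2.03, 1.66, 2.03, 1.92, 1.62 and 1.97, and the WT H3K36me2 step was 0.457, 0.607, 0.445, 0.492, 0.578 and 0.962. The step was larger in WT than in K36M under each of these 6. No paired analysis was possible because each group had 1 library and no leave-one-out could be made. In H3K36me2, a median member held 100 reads in WT and 82 in K36M, which sets counting half-widths of 19.6% and 21.6%. A ratio between the lines in a single bin carries both errors. The cause of these shifts was not tested.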
